A study of Mus musculus with 8 samples.

Results

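The 36 genes described here encode enzymes of the TCA cycle and of the burning of pyruvate, ketone bodies and branched-chain amino acids that feeds it. The branched-chain amino acids are leucine, isoleucine and valine. The enzymes are mitochondrial except for Bcat1, which is cytosolic, and Bckdk and Ppm1k regulate a step rather than carry it out. The 36 genes were named by their function and were looked up by symbol in the 13227 genes of the deposited count table. All 36 were found, and all 36 were among the 13226 genes kept by the filter on low counts. They fall into 5 genes of pyruvate dehydrogenase, 12 of the TCA cycle, 3 of ketone body oxidation, 7 of the first steps of branched-chain amino acid breakdown and 9 of its later steps. The series compared hearts of FVB/N mice, an inbred strain, that overexpress FASTKD1 with hearts of mice lacking the transgene. FASTKD1 is a mitochondrial protein of the FASTK family of RNA-binding proteins. RNA from each heart was sequenced, and the labels give every mouse as a male adult of 3 months. The non-transgenic group has 4 hearts, lettered A, B, D and E, and the transgenic group has 4 hearts, lettered A, B, C and E. No drug, surgery or other allele is named for either group. The title of the series describes the overexpression as cardiac-specific; its promoter and founder line are not stated in the labels. Every set of 8 values below follows the order non-transgenic A, B, D, E and then transgenic A, B, C, E.

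The heart draws most of its ATP from mitochondrial oxidation. Pyruvate dehydrogenase turns pyruvate into acetyl-CoA, ketone bodies are split to acetyl-CoA by a separate short route, and branched-chain amino acids end as acetyl-CoA, acetoacetate or succinyl-CoA. The TCA cycle oxidises acetyl-CoA and passes electrons as NADH and FADH2 to the respiratory chain. Several of these enzymes share parts: dihydrolipoamide dehydrogenase (Dld) is the common last subunit of pyruvate dehydrogenase, oxoglutarate dehydrogenase and the branched-chain ketoacid dehydrogenase.

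Promoter windows are shown for the members that separated the groups, for those holding a searched motif, and for the pathway gene Pck2, which rose in transgenic hearts. Each window runs from 250 bases before to 50 bases after a RefSeq transcription start on GRCm38.p6, written 5′ to 3′ on the gene's own strand. Capitals mark a match to a searched motif on either strand. The windows of Idh2 (chr7:80115301-80115600, minus strand) and Idh3b (chr2:130284402-130284701, minus strand) hold none of the searched motifs. Those of Ogdh (chr11:6292308-6292607, plus strand, the window of a downstream start) and Pccb (chr9:101034835-101035134, minus strand) both hold the NRF1 core. That of Pck2 (chr14:55540016-55540315, plus strand) holds the ATF4 or CHOP element. The pathway genes Slc3a2 and Slc7a5, described below, also rose. The window of Slc3a2 (chr19:8713848-8714147, minus strand, not printed) holds none of the searched motifs, and Slc7a5 had no window.
Idh2: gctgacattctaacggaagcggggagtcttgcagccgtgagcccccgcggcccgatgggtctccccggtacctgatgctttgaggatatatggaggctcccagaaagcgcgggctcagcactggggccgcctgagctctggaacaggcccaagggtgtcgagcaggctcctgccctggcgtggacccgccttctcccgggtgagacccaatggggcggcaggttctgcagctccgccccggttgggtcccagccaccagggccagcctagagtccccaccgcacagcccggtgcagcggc
Idh3b: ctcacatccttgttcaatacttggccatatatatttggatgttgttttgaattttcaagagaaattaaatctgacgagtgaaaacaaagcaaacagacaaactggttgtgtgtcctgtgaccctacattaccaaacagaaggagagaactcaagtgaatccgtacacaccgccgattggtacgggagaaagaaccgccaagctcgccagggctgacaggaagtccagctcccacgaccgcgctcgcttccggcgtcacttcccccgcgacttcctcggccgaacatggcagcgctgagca
Ogdh: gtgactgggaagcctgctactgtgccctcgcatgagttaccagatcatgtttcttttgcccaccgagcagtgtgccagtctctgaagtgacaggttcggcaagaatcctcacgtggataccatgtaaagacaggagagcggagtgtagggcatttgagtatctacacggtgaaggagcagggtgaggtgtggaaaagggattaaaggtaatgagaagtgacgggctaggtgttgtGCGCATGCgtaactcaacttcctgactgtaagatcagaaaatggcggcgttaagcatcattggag
Pccb: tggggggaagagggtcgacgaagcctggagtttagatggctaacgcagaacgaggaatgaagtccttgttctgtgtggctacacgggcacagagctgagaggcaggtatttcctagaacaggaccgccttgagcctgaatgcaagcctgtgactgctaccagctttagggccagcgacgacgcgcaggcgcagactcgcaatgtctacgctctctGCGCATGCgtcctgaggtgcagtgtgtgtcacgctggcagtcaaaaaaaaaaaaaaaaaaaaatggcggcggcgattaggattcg
Pck2: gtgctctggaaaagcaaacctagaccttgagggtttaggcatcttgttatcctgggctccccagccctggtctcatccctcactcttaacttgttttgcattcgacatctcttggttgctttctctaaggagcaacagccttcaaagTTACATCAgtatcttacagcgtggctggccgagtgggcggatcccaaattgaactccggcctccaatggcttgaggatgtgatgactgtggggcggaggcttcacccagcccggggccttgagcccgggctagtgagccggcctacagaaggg

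Of the 36 members, 32 had a window in RefSeq's table, 43 windows in all, and Acat1, Dbt, Idh3a and Mut had no entry. The extended element of the estrogen-related receptors, TCAAGGTCA, was in none of the 32 genes and in 0.466% of the 27025 genes with a window. Its shorter form AAGGTCA, which is contained in the longer motif, was in 1 of the 32 (Ogdh, as TGACCTT on the plus strand, in the window chr11:6291920-6292219 of another start) and in 5.38% of all genes. The NRF1 core GCGCATGC was in 2 of the 32 (Ogdh and Pccb), or 6.25%, beside 3.05% of all genes. The element TGATGNAA bound by ATF4 and CHOP was in 0 of the 32 and in 4.51% of all genes. These are letter matches in short windows and say nothing about binding.

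The libraries held 44584359 to 55769859 counts each, and the 36 members together took 1.73% to 1.99% of them. Fastkd1, read first as a check of the labels, was at 26.3, 30.2, 192 and 33.8 CPM (counts scaled by library size) in non-transgenic and at 10026, 9341, 8845 and 11516 CPM in transgenic hearts (edgeR adjusted p = 0.000684), so all 4 transgenic hearts carried the overexpression. Non-transgenic heart D stands apart: its Fastkd1 level is above that of the other 3, and it holds 0 counts of Y-linked genes where the other 7 libraries hold 10372 to 15914, although it is labelled male. Transgenic heart A stands apart by its atrial genes, whose summed level was 3468 CPM against 75.8 to 704 CPM in the other 7 hearts. The 704 CPM was that of heart D, while the other non-transgenic hearts were at 109 to 176 CPM. Of the 10 listed atrial markers 9 were tested and none was at 0. Values without non-transgenic heart D or transgenic heart A are given beside the members whose overlap rests on that heart. Mitochondrially encoded genes took 18.6% to 30.1% of counts, with non-transgenic heart B highest and heart D lowest.

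No member passed the test. With edgeR's quasi-likelihood test and Benjamini-Hochberg adjustment over all 13226 genes at a threshold of 0.05, 0 of 36 members rose and 0 of 36 fell, and their adjusted p ran from 0.147 to 0.981. Over all genes the same test called 133 higher (1.01%) and 32 lower (0.242%) in transgenic hearts. The fitted fold changes were nevertheless nearly all on the same side: 34 of 36 members were lower in transgenic hearts, with a median log2 fold change of -0.16 and a range of -0.41 to 0.23, while 48.8% of all genes were lower with a median of 0.01. The more abundant genes of the table leaned the same way. The set used here starts at the members' median abundance, so it holds the members from that median upward. It leaves out the less abundant members and is not matched to the 36. Among the 314 tested genes at or above the members' median abundance, 78.3% were lower and the median was -0.17, close to that of the members; 26.4% of these 314 were lower at an unadjusted edgeR p under 0.05, and in 12.7% every transgenic heart was below every non-transgenic heart. At an unadjusted p under 0.05, 9 members, or 25.0%, were lower (Idh3b, Idh2, Sucla2, Fh1, Acat1, Ivd, Mccc2, Mut and Hibadh) and 0 were higher, where edgeR gave 5.38% of all genes lower and 5.37% higher. That number was 3 without non-transgenic heart A or B or without transgenic heart B, C or E, and it was 17 without non-transgenic heart D and 19 without hearts D and transgenic A. In 2 members, Idh2 and Idh3b, every transgenic heart was below every non-transgenic heart, beside 2.8% of all genes and the 12.7% of abundant ones; no member had all transgenic hearts above, beside 4.58% of all genes. DESeq2 called 1 member lower, Idh2, and 0 higher, and it called 1.2% of all genes lower.

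Single hearts moved many of these values. Leaving out 1 heart changed the log2 fold change by over 1.5 times in 29 of the 36 members: in 22 without non-transgenic heart B, in 15 without D, in 13 without A, in 7 without E, and in 4 to 7 without a transgenic heart. The other 7 were Idh2, Idh3b, Dlst, Fh1, Ivd, Mccc2 and Hibadh. The spread between hearts bounds the size of a change. The 95% interval of the fold change, taken for each gene alone, left out a 2-fold fall in 36 of 36 members, a 1.5-fold fall in 28 and a 1.5-fold rise in 35. The exception for a rise was Bcat1, the gene with the fewest counts. Most genes gave such intervals. Of all 13226 genes, 12679 left out a 2-fold fall, 11047 a 1.5-fold fall and 11037 a 1.5-fold rise.

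**Figure D1:**
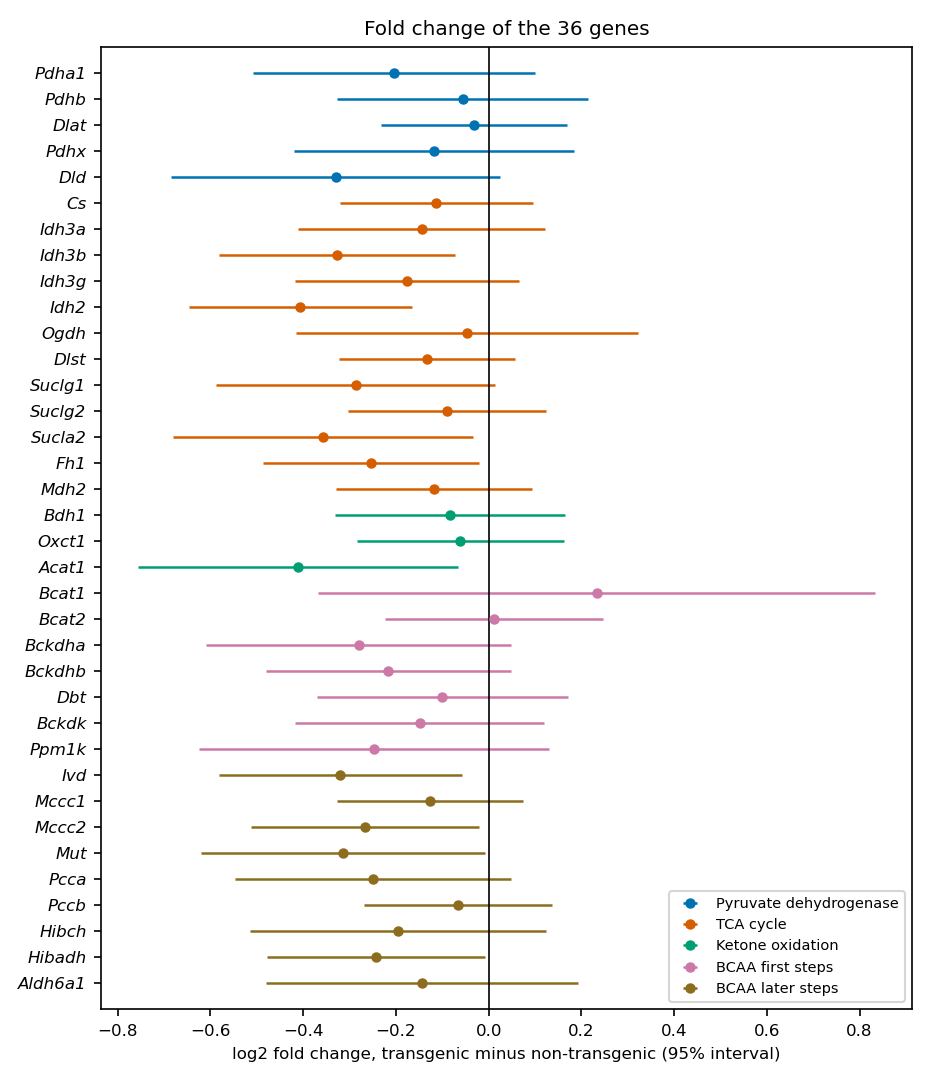
Log2 fold change of each of the 36 genes, transgenic minus non-transgenic, from the edgeR fit (points), with 95% intervals (lines), coloured by step of the pathway. Of the 36 points 34 lie below 0, from -0.41 to 0.23, and the intervals of Idh2 and Idh3b are among the 9 that end below 0.

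Idh2 came closest to the threshold. It encodes the NADP-dependent isocitrate dehydrogenase of mitochondria, which supplies NADPH there, and lies on chromosome 7 (ENSMUSG00000030541, GRCm38, 80094846 to 80115392, minus strand). Idh2 was at 2045, 2022, 1558 and 1780 CPM in non-transgenic and at 1423, 1368, 1320 and 1479 CPM in transgenic hearts. Every transgenic heart was below the lowest non-transgenic heart, which was D. The means were 1851 ± 230 and 1398 ± 68.6 CPM (SD, n = 4 each), 24.5% apart, with a log2 fold change of -0.41 (SE 0.108, 95% interval -0.65 to -0.17, edgeR adjusted p = 0.147). DESeq2 gave an adjusted p of 0.00652, and edgeR gave 0.0369 with a log2 fold change of -0.49 when non-transgenic heart D was left out. Over the 18 alternatives the log2 fold change of Idh2 ran from -0.49 to -0.32 and its adjusted p from 0.00652 to 0.412. Its promoter window, printed above, held none of the 4 motifs.

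The NAD-dependent isocitrate dehydrogenase is built from the products of Idh3a, Idh3b and Idh3g. Idh3b (ENSMUSG00000027406, chromosome 2, 130279309 to 130284547, minus strand) was at 920, 1025, 723 and 801 CPM in non-transgenic and at 706, 694, 686 and 680 CPM in transgenic hearts. The transgenic hearts were tightly grouped (691 ± 11.2 CPM, SD, n = 4) and all below the non-transgenic ones (867 ± 133 CPM). Its log2 fold change was -0.33 (SE 0.114, 95% interval -0.58 to -0.07, edgeR adjusted p = 0.322), and the adjusted p ran from 0.101 to 0.658 over the alternatives. Idh3a, the catalytic subunit, was at 781, 943, 647 and 754 CPM in non-transgenic and at 734, 711, 733 and 648 CPM in transgenic hearts, with all 4 transgenic hearts inside the non-transgenic range (log2 fold change -0.14, edgeR adjusted p = 0.754). Idh3g was at 425 to 573 CPM in non-transgenic and at 420 to 477 CPM in transgenic hearts (log2 fold change -0.18, edgeR adjusted p = 0.642). Without non-transgenic heart B the log2 fold change of Idh3a was -0.04 and that of Idh3g -0.11, and without heart D that of Idh3a was -0.23.

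The ratio of Idh3a to Idh3b, each as CPM per kb of annotated exons, was 0.572, 0.621, 0.604 and 0.635 in non-transgenic and 0.702, 0.692, 0.721 and 0.643 in transgenic hearts. The groups did not overlap. This ratio was examined after the levels had been seen, as was that of Pdha1 to Pdhb below, and these 2 were the ones without overlap among 9 computed. Of the 630 ratios that 36 genes allow, 47 (7.46%) separated the groups.

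**Figure D2:**
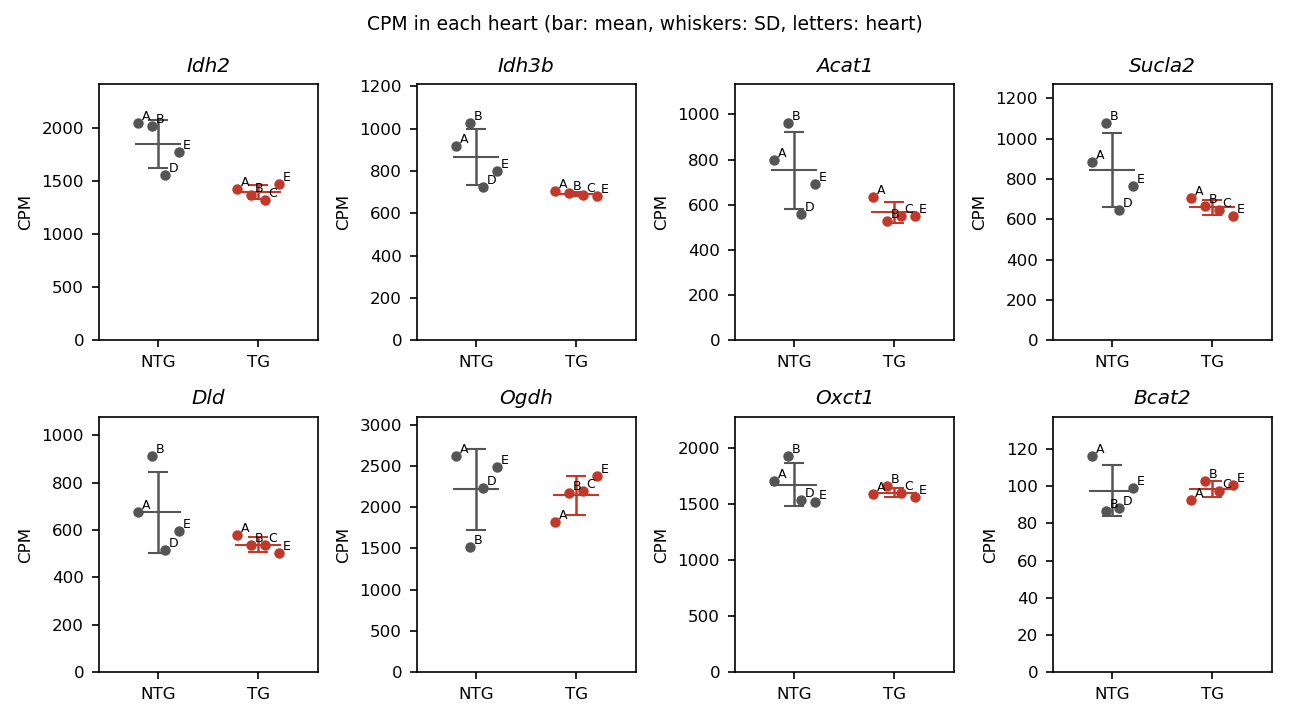
CPM of 8 genes in each heart (points with the heart's letter), with the group mean (bar) and SD (whiskers, n = 4); each axis starts at 0. Idh2 and Idh3b do not overlap between groups, Acat1, Sucla2 and Dld overlap through non-transgenic heart D, and Ogdh, Oxct1 and Bcat2 overlap widely.

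Succinyl-CoA synthetase makes GTP or ATP in the cycle, with Suclg1 as the common subunit, Sucla2 as the ATP-forming and Suclg2 as the GTP-forming partner. Sucla2 was at 886, 1075, 648 and 766 CPM in non-transgenic and at 707, 665, 647 and 615 CPM in transgenic hearts, with a log2 fold change of -0.36 (SE 0.146, edgeR adjusted p = 0.415). Non-transgenic heart D lay within the transgenic range, and the other 3 lay above it. Suclg1 was at 466, 515, 333 and 395 CPM and then at 379, 357, 342 and 323 CPM (log2 fold change -0.29, edgeR adjusted p = 0.496), again with only heart D inside the transgenic range. Without heart D the log2 fold changes were -0.47 for Sucla2 and -0.40 for Suclg1 (edgeR adjusted p = 0.120 and 0.152), and without non-transgenic heart B they were -0.22 and -0.18. Suclg2 was at 146 to 184 CPM in non-transgenic and 152 to 166 CPM in transgenic hearts (log2 fold change -0.09, edgeR adjusted p = 0.820), and its value ran from -0.16 without heart D to -0.05 without heart B. Per kb, Sucla2 exceeded Suclg2 in every heart, by 5.15 to 6.77 times in non-transgenic and 4.33 to 5.38 times in transgenic hearts, which overlap.

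Fh1, Cs and Mdh2 close the cycle and start it anew. Fh1, fumarase, was at 456, 482, 365 and 427 CPM in non-transgenic and at 388, 370, 349 and 344 CPM in transgenic hearts (log2 fold change -0.25, edgeR adjusted p = 0.422). Heart D was the only non-transgenic heart inside the transgenic range, and leaving it out gave a log2 fold change of -0.33 (edgeR adjusted p = 0.135). Cs, citrate synthase, which starts the cycle, was at 1848, 1715, 1499 and 1728 CPM and then at 1472, 1612, 1623 and 1572 CPM (log2 fold change -0.11, edgeR adjusted p = 0.757). Csl, a close copy of Cs in the annotation, has no entry of its own in the count table, so reads of Cs may include reads of that copy. Mdh2, malate dehydrogenase, was at 1048 to 1316 CPM in non-transgenic and 1058 to 1128 CPM in transgenic hearts (log2 fold change -0.12, edgeR adjusted p = 0.745). Leaving out 1 heart moved Cs to between -0.18 and -0.07 and Mdh2 to between -0.19 and -0.07, the first without heart D and the second without non-transgenic heart A in both genes.

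Oxoglutarate dehydrogenase carries the cycle from 2-oxoglutarate to succinyl-CoA. Its first subunit gene Ogdh was at 2622, 1516, 2227 and 2490 CPM in non-transgenic and at 1823, 2171, 2200 and 2377 CPM in transgenic hearts. Non-transgenic heart B was the lowest of the 8 for Ogdh, whereas it was the highest of the 8 for 21 of the 36 members. The log2 fold change of Ogdh was -0.05 (SE 0.166, edgeR adjusted p = 0.955), and its sign turned when non-transgenic heart A was left out (0.04), when transgenic heart A was left out (0.02) and when hearts D and transgenic A were both left out (0.03). Dlst, the second subunit, was at 711 to 819 CPM in non-transgenic and 678 to 733 CPM in transgenic hearts (log2 fold change -0.13, edgeR adjusted p = 0.664). Without non-transgenic heart D the value of Dlst was -0.17. Dld, the shared last subunit, was at 674, 913, 518 and 597 CPM in non-transgenic and at 577, 535, 536 and 501 CPM in transgenic hearts. Dld had a log2 fold change of -0.33 (SE 0.159, edgeR adjusted p = 0.512), and heart D again lay inside the transgenic range. Without heart D it was -0.45 (edgeR adjusted p = 0.201), and without non-transgenic heart B, the highest for Dld, it was -0.15. All 12 TCA cycle genes were lower in the fit, with a median of -0.16, and 4 of the 12 had an unadjusted edgeR p under 0.05. At that p, 5.38% of all genes and 26.4% of the 314 more abundant genes were lower.

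Pyruvate dehydrogenase links glycolysis to the cycle. Pdha1, its catalytic alpha subunit, was at 1274, 1633, 1025 and 1160 CPM in non-transgenic and at 1165, 1102, 1082 and 1071 CPM in transgenic hearts (log2 fold change -0.20, SE 0.136, edgeR adjusted p = 0.681). The partner subunit Pdhb was at 516, 588, 398 and 468 CPM and then at 479, 503, 472 and 442 CPM (log2 fold change -0.06, edgeR adjusted p = 0.919). All transgenic hearts lay within the non-transgenic range for both genes. Without non-transgenic heart B the log2 fold change of Pdha1 was -0.06 and that of Pdhb 0.04. The per-kb ratio of Pdha1 to Pdhb was 2.55 to 2.87 in non-transgenic and 2.27 to 2.52 in transgenic hearts, without overlap; 16.2% of the annotated exon bases of Pdha1 are shared with Map3k15 on the opposite strand. Dlat, the acetyltransferase core, was at 343 to 405 CPM in non-transgenic and 341 to 378 CPM in transgenic hearts (log2 fold change -0.03, edgeR adjusted p = 0.942). Pdhx, which anchors Dld to that core, was at 145 to 232 CPM and 155 to 180 CPM (log2 fold change -0.12, edgeR adjusted p = 0.833). Over the 5 genes of the complex, Dld included, the median was -0.12 and none had an unadjusted p under 0.05.

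Ketone body oxidation runs through Bdh1, Oxct1 and Acat1. Oxct1, the CoA transferase that commits ketone bodies to oxidation, was at 1707, 1934, 1538 and 1520 CPM in non-transgenic and at 1594, 1663, 1600 and 1565 CPM in transgenic hearts, all within the non-transgenic range (log2 fold change -0.06, edgeR adjusted p = 0.889). Bdh1, which interconverts hydroxybutyrate and acetoacetate, was at 203 to 280 CPM and 207 to 244 CPM (log2 fold change -0.08, edgeR adjusted p = 0.857). Acat1, the thiolase that splits acetoacetyl-CoA and also acts in isoleucine breakdown, had the lowest fitted value of the 36. Acat1 was at 799, 960, 558 and 691 CPM in non-transgenic and at 636, 528, 549 and 549 CPM in transgenic hearts. Only heart D of the non-transgenic hearts lay inside the transgenic range, and transgenic heart A was the highest of its group. The log2 fold change of Acat1 was -0.41 (SE 0.155, 95% interval -0.76 to -0.07, edgeR adjusted p = 0.363). It was -0.54 without heart D (edgeR adjusted p = 0.0881) and -0.27 without non-transgenic heart B.

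Branched-chain amino acids first lose their amino group and are then decarboxylated. Bcat2, the mitochondrial aminotransferase, was at 116, 86.8, 88.3 and 98.7 CPM in non-transgenic and at 92.7, 103, 97.3 and 101 CPM in transgenic hearts, with a log2 fold change of 0.01 (edgeR adjusted p = 0.981). Bcat1, the cytosolic form, was close to the detection limit at 0.816 to 1.68 CPM in non-transgenic and 1.01 to 1.81 CPM in transgenic hearts, from 36 to 107 counts a library (log2 fold change 0.23, SE 0.270, edgeR adjusted p = 0.835). Per kb, Bcat2 exceeded Bcat1 by 125 to 340 times in non-transgenic and by 129 to 238 times in transgenic hearts. These aminotransferase genes were the only 2 of the 36 with a fitted value above 0.

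The branched-chain ketoacid dehydrogenase, the committed step, takes its first 2 subunits from Bckdha and Bckdhb and its core from Dbt. Bckdha was at 127, 94.7, 75.8 and 85.3 CPM in non-transgenic and at 77.1, 83.8, 71.9 and 82.3 CPM in transgenic hearts (log2 fold change -0.28, edgeR adjusted p = 0.564). Non-transgenic heart A was the highest of the 8, and hearts D and E lay at the level of the transgenic hearts or just above it. Without heart A the log2 fold change was -0.11. Of the exon bases of Bckdha 61.7% overlap B3gnt8 on the opposite strand, and since the strand setting of the counting is not known, reads of these 2 genes cannot be told apart there. Smaller overlaps with opposite-strand genes cover 18.6% of Aldh6a1 and 15.95% of Bcat2. Bckdhb was at 53.6 to 73.1 CPM in non-transgenic and 49.9 to 58.0 CPM in transgenic hearts (log2 fold change -0.22, edgeR adjusted p = 0.586), and its value was -0.14 without heart A. Dbt was at 86.7 to 124 CPM and 85.6 to 104 CPM (log2 fold change -0.10, edgeR adjusted p = 0.840).

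The kinase and the phosphatase of this complex act against each other, Bckdk switching it off and Ppm1k switching it on. Bckdk was at 120, 98.7, 80.6 and 98.0 CPM in non-transgenic and at 98.6, 89.2, 85.2 and 85.7 CPM in transgenic hearts (log2 fold change -0.15, edgeR adjusted p = 0.748). Ppm1k was at 112, 161, 130 and 137 CPM and then at 155, 92.8, 103 and 104 CPM (log2 fold change -0.25, edgeR adjusted p = 0.689). Transgenic heart A was the highest of its group for both, and 3 transgenic hearts were below every non-transgenic heart for Ppm1k. Without transgenic heart A the log2 fold change of Ppm1k was -0.43 (edgeR adjusted p = 0.214), and without non-transgenic heart B it was -0.15. Without non-transgenic heart A that of Bckdk was -0.04. The per-kb ratio of Bckdk to Ppm1k was 1.75, 1.002, 1.01 and 1.17 in non-transgenic and 1.04, 1.57, 1.35 and 1.35 in transgenic hearts, which overlap.

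The later steps differ for each amino acid. For leucine, Ivd, the isovaleryl-CoA dehydrogenase, was at 468, 416, 346 and 395 CPM in non-transgenic and at 377, 324, 298 and 305 CPM in transgenic hearts (log2 fold change -0.32, edgeR adjusted p = 0.352). Only transgenic heart A reached into the non-transgenic range, and only non-transgenic heart D lay below it. Without transgenic heart A the value of Ivd was -0.40 (edgeR adjusted p = 0.218), and without heart D it was also -0.40. The biotin-dependent methylcrotonyl-CoA carboxylase had Mccc2 at 91.3, 91.7, 70.003 and 83.1 CPM and then at 78.3, 71.3, 67.1 and 62.7 CPM (log2 fold change -0.27, edgeR adjusted p = 0.422), and Mccc1 at 41.4 to 49.1 CPM and 37.7 to 44.3 CPM (log2 fold change -0.13, edgeR adjusted p = 0.707). Without non-transgenic heart D the value of Mccc2 was -0.35, and without transgenic heart A that of Mccc1 was -0.18. For valine, Hibadh, the hydroxyisobutyrate dehydrogenase, was at 312, 291, 235 and 285 CPM in non-transgenic and at 259, 231, 235 and 224 CPM in transgenic hearts (log2 fold change -0.24, edgeR adjusted p = 0.444). Hibch, the hydrolase before Hibadh, was at 105 to 174 CPM in non-transgenic and within 112 to 115 CPM in transgenic hearts (log2 fold change -0.20, edgeR adjusted p = 0.717). Its value was -0.03 without non-transgenic heart B and -0.30 without heart D, and that of Hibadh was -0.33 without heart D. Aldh6a1, the semialdehyde dehydrogenase after Hibadh, was at 301, 398, 238 and 300 CPM and then at 326, 261, 267 and 265 CPM, with transgenic heart A above the rest of its group (log2 fold change -0.14, edgeR adjusted p = 0.817).

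Valine and isoleucine carbons reach the cycle through propionyl-CoA. Pcca and Pccb encode its carboxylase and Mut the mutase that yields succinyl-CoA. Mut was at 209, 291, 203 and 216 CPM in non-transgenic and at 218, 169, 178 and 174 CPM in transgenic hearts (log2 fold change -0.31, edgeR adjusted p = 0.445). Transgenic heart A was inside the non-transgenic range, and the other 3 were below it. Without transgenic heart A the log2 fold change of Mut was -0.40 (edgeR adjusted p = 0.299), and without non-transgenic heart B it was -0.18. Pcca was at 84.7 to 131 CPM in non-transgenic and 84.0 to 101 CPM in transgenic hearts (log2 fold change -0.25, edgeR adjusted p = 0.574, and -0.13 without non-transgenic heart B), and Pccb was at 83.9 to 103 CPM and 86.1 to 97.0 CPM (log2 fold change -0.07, edgeR adjusted p = 0.862). All 9 later-step genes were lower in the fit, with a median of -0.24, and 4 of the 9 had an unadjusted edgeR p under 0.05. The 7 first-step genes had a median of -0.15 and none at that p. Of all genes 5.38% were lower at that p, and of the 314 more abundant genes 26.4%. Those 314 start at the members' median abundance, and most of the branched-chain genes lie below it. The 26.4% is therefore not a share for genes of their abundance. Over all 36 members the number was 9, but 3 without non-transgenic heart A and 17 without heart D. A difference between the steps was not tested.

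**Figure D3:**
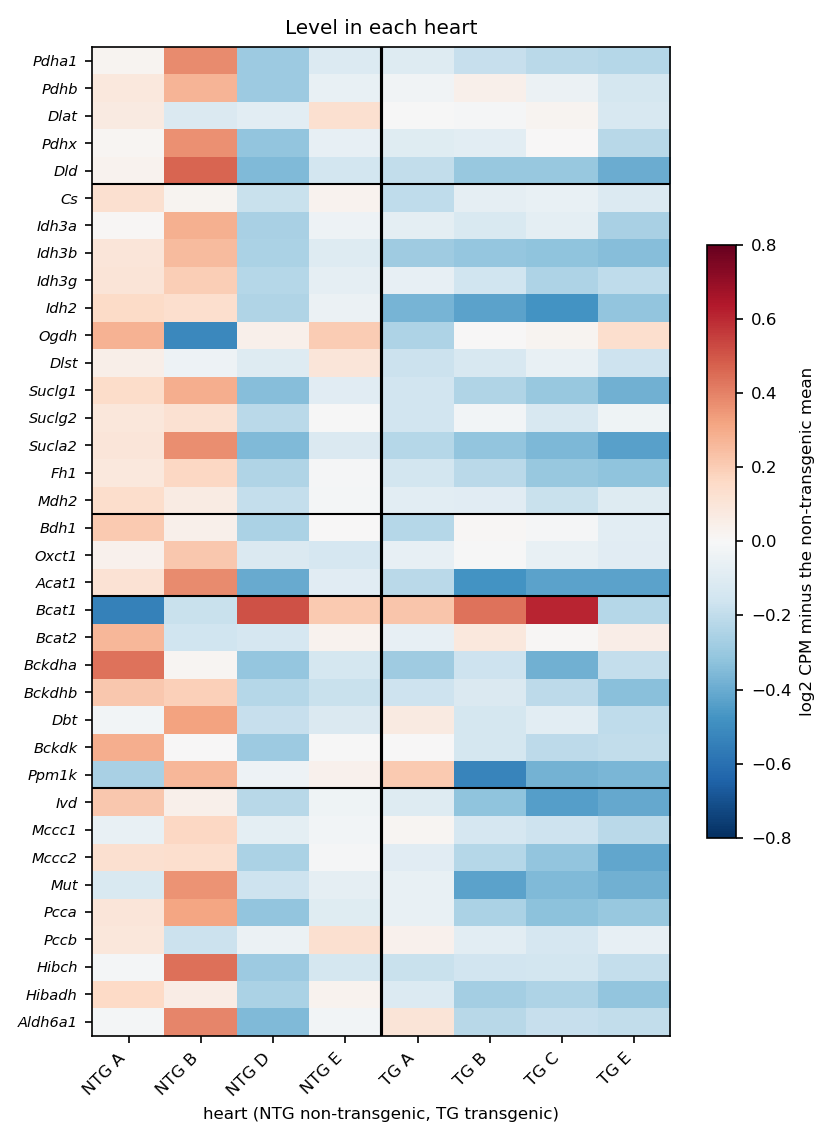
Log2 CPM of the 36 genes in each heart, as the difference from the gene's non-transgenic mean (red higher, blue lower, scale -0.8 to 0.8), with lines between the pathway steps. Non-transgenic heart B is highest of the 8 for 21 genes but lowest for Ogdh, and heart D is lowest of its group for 29 genes.

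With TMM scaling the members varied more among non-transgenic than among transgenic hearts. The mean log2 CPM of the 36 members was 8.21, 8.29, 7.93 and 8.104 in non-transgenic and 8.03, 7.97, 7.95 and 7.91 in transgenic hearts. The means were 8.13 ± 0.155 and 7.97 ± 0.053 (SD, n = 4 each). Heart D was the lowest non-transgenic heart in 29 of 36 genes and lay among the transgenic hearts in this mean, so the groups overlapped through it. The difference was -0.17 with all hearts and -0.24 without heart D. Among transgenic hearts, A was the highest in 21 of 36 genes.

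The position of heart D differed between TMM and library totals. The TMM factors, which adjust library sizes for the genes that dominate a library, were 0.916, 0.853, 1.11 and 1.03 in non-transgenic and 0.988, 1.02, 1.06 and 1.04 in transgenic hearts. With library totals only, the mean log2 CPM of the members was 8.09, 8.06, 8.08 and 8.15 in non-transgenic and 8.02, 8.002, 8.04 and 7.97 in transgenic hearts. On that scale the groups did not overlap, heart D lay with its own group, and the difference was -0.09. The SDs were then 0.0403 and 0.0295, closer to each other than with TMM. With TMM scaling on counts without mitochondrially encoded genes, heart D was at 8.33, inside the transgenic range of 8.30 to 8.43, as with TMM on all genes. The share of all counts held by the members was 1.93%, 1.83%, 1.89% and 1.99% in non-transgenic and 1.73%, 1.78%, 1.82% and 1.79% in transgenic hearts, again without overlap. With totals only, 7 members (Dld, Idh3b, Idh3g, Idh2, Sucla2, Fh1 and Mccc2) had every transgenic heart below every non-transgenic heart, beside 2.57% of all genes. The share of the 314 more abundant genes was 12.7% with TMM and was not computed with totals only. It is thus open whether these 7 exceed what abundant genes give. Scaling by totals only moved the median of all genes from 0.01 to 0.08 and that of the members from -0.16 to -0.08. It turned Pdhb, Dlat, Ogdh, Bdh1, Oxct1 and Pccb to values at or just above 0.

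**Figure D4:**
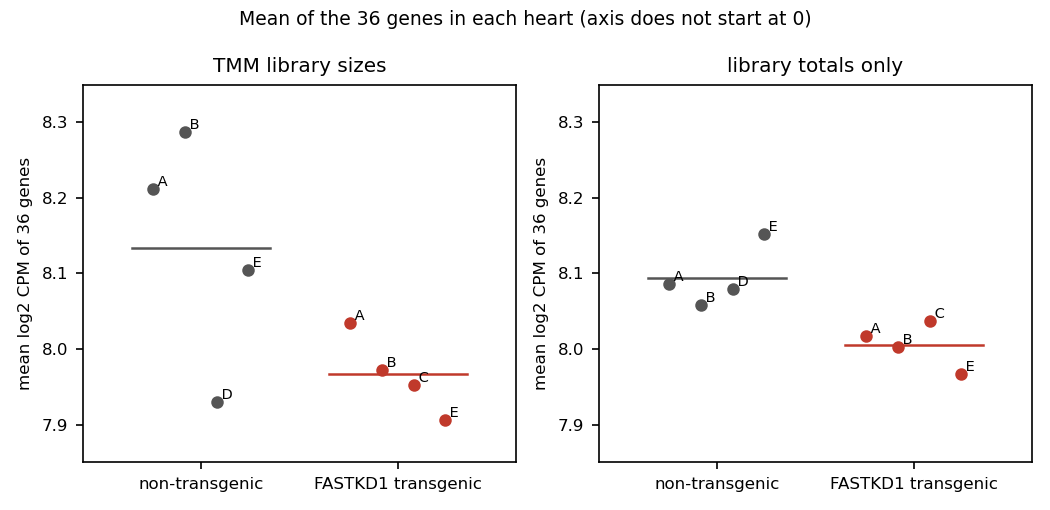
Mean log2 CPM of the 36 genes in each heart (points with the heart's letter) and group mean (lines) with TMM library sizes (left) and library totals only (right); the axis does not start at 0. With TMM, non-transgenic heart D lies at 7.93 among the transgenic hearts, and with totals only the 4 non-transgenic hearts lie at 8.06 to 8.15, above the transgenic ones at 7.97 to 8.04.

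Part of the spread between hearts moved with base composition. Across the 36 members, the deviation of non-transgenic heart B from its group correlated with the GC content of the gene at r = -0.58, and at r = -0.62 across 8689 genes; for non-transgenic heart A the values were 0.59 and 0.48. The members share their library and are not independent, so these are descriptions. In transgenic hearts A and B the members gave -0.51 and 0.50, and all 8689 genes -0.19 and 0.20. In non-transgenic hearts D and E the members gave 0.08 and 0.16, and all 8689 genes 0.23 and 0.23. In transgenic hearts C and E the members gave -0.11 and 0.39, and all 8689 genes 0.01 and 0.13. Each deviation was taken from the mean of the other hearts of its group. Values within a group, their opposite signs included, therefore depend on each other. What part base composition has in the fold changes was not tested.

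Summed levels of some cell type markers moved with the groups. The 10 ventricular cardiomyocyte markers summed to 82809 to 96240 CPM in non-transgenic and 67934 to 70953 CPM in transgenic hearts. In the fit 10 of 10 were lower, 0 of 10 passed the edgeR test, and none was at 0. Their median log2 fold change was -0.32, with Ryr2 nearest to 0 at -0.005. At an unadjusted edgeR p under 0.05, 9 of the 10 were lower, beside 5.38% of all genes and 26.4% of the 314 more abundant ones. In 7 of the 10 every transgenic heart was below every non-transgenic heart, beside 2.8% and 12.7%. The 7 tested of 9 adipocyte markers summed to 451 to 763 CPM and 387 to 424 CPM, most of it Fabp4. All 7 were lower in the fit, but only Fabp4 separated the groups (426 to 727 and 362 to 403 CPM). Adipoq, for one, overlapped at 0.190 to 9.72 CPM and 0.660 to 4.25 CPM. The sum is thus mainly a reading of Fabp4. The part of the adipocyte markers in the members' values was not tested, nor was that of the ventricular genes. Fibroblast markers (10 of 10 tested, 5 lower) spanned 2392 to 2783 CPM and 2244 to 3116 CPM, endothelial markers (8 of 10 lower) 961 to 1115 CPM and 963 to 1020 CPM, and macrophage markers (10 of 10 lower) 301 to 459 CPM and 298 to 434 CPM. The 4 tested of 6 erythroid markers, all lower, spanned 356 to 803 CPM and 299 to 416 CPM. In RNA of whole tissue, fewer cells of a type and less RNA per cell cannot be told apart.

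Levels among the members spanned a wide range in the non-transgenic hearts. As CPM per kb of annotated exons, Idh2 was highest at 715 (range 602 to 790 over 4 hearts), followed by Oxct1 at 453, Ogdh at 406, Pdha1 at 341, Mdh2 at 337 and Cs at 294. The ketone transferase Oxct1 was thus second, while Bdh1 stood at 62.6. The branched-chain genes filled the lower end, with Ivd highest among them at 73.8 and with Pcca at 20.5, Mccc1 at 4.01 and Bcat1 at 0.132. Of 35 pairs of neighbours in this order, 32 overlapped in range. The exceptions were Idh2 above Oxct1, Pcca above Mccc1 and Mccc1 above Bcat1. Lengths count every annotated exon, so a gene with long exons that the heart does not use reads too low.

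**Figure D5:**
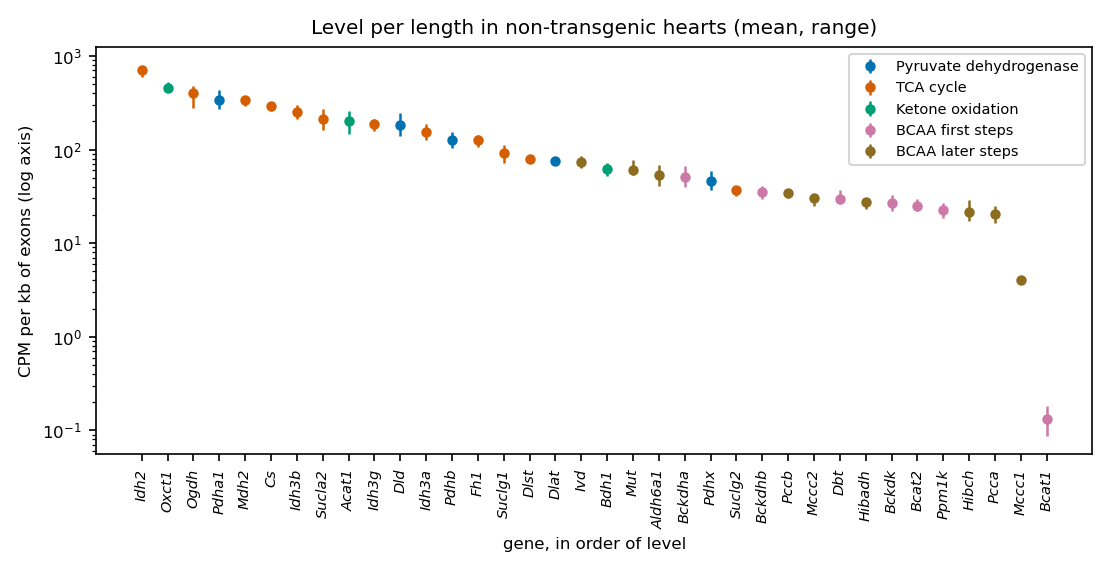
Mean level of the 36 genes in non-transgenic hearts, as CPM per kb of annotated exons on a log axis (points, with the range over 4 hearts as lines), in order of level and coloured by pathway step. TCA cycle genes hold most of the upper end from Idh2 at 715, and Bcat1 at 0.132 lies far below the rest.

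Neighbouring genes of these pathways gave 3 calls. Of 71 listed, 69 were tested, and 3 rose, 0 fell and 50 were lower in the fit, with a median of -0.11. At an unadjusted edgeR p under 0.05, 11 were lower and 4 higher, beside 5.38% and 5.37% of all genes. Pck2, the mitochondrial PEP carboxykinase that drains oxaloacetate from the cycle, was at 5.58, 3.94, 6.23 and 5.27 CPM in non-transgenic and at 12.9, 16.1, 15.0 and 16.7 CPM in transgenic hearts (log2 fold change 1.53, SE 0.148, edgeR adjusted p = 0.000385). Slc7a5 and Slc3a2 encode the light and heavy chains of the cell-surface transporter that brings in branched-chain amino acids. Slc7a5 was at 2.74 to 4.42 CPM in non-transgenic and 31.8 to 48.5 CPM in transgenic hearts (log2 fold change 3.53, edgeR adjusted p = 4.48e-06), and Slc3a2 at 25.4 to 38.0 CPM and 65.9 to 81.6 CPM (log2 fold change 1.19, edgeR adjusted p = 0.000779). The groups did not overlap for any of these 3 genes.

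The remaining pathway lists had no gene past the edgeR test. Among 13 genes that control pyruvate dehydrogenase or supply pyruvate, 10 were lower, and the smallest p values were those of Pdp2, a pyruvate dehydrogenase phosphatase, and Ldha, lactate dehydrogenase. Pdp2 was at 38.3, 33.5, 29.1 and 34.3 CPM in non-transgenic and at 28.8, 23.0, 21.97 and 21.2 CPM in transgenic hearts, without overlap (log2 fold change -0.51, SE 0.124, edgeR adjusted p = 0.106). DESeq2 called it (adjusted p = 0.00747), as did edgeR without transgenic heart A (0.0295). Ldha was at 610 to 722 CPM and 479 to 573 CPM (log2 fold change -0.31, edgeR adjusted p = 0.294). Of the 9 genes of lipoylation, the cofactor attachment that Dlat, Dlst and Dbt need, 6 were lower; Nfu1, which helps deliver iron-sulfur clusters, was at 40.1, 49.4, 34.4 and 38.6 CPM and then at 47.4, 51.9, 49.7 and 48.8 CPM (log2 fold change 0.28, edgeR adjusted p = 0.382, and 0.0395 without non-transgenic heart B). Bola3, of the same step, was at 79.0 to 115 CPM and 75.1 to 84.7 CPM (log2 fold change -0.25, edgeR adjusted p = 0.491). Of the other ketone genes 7 of 9 were tested and 6 were lower; Aacs, the acetoacetyl-CoA synthetase of the cytosol, was at 4.30 to 5.52 CPM in non-transgenic and 5.22 to 6.18 CPM in transgenic hearts (log2 fold change 0.19, edgeR adjusted p = 0.664).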

How the data were processed

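RNA of 8 hearts, 4 non-transgenic and 4 FASTKD1 transgenic per the labels, was sequenced from TruSeq libraries. Each deposited file holds the raw read count of every listed Ensembl gene in 1 library. The submitters' processing notes name cutadapt 1.15, TopHat2 and the assembly GRCm38 (mm10); counter, strand setting and annotation are not given in the sources used here. Labels do not say how the hearts were sampled beyond a letter for each, so p-values measure the spread between these 8 libraries. Symbols, exon lengths and coordinates came from GENCODE M21 for GRCm38, which lacks 12 of the identifiers, and promoter windows from RefSeq on GRCm38.p6.

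The fit used edgeR 4.0.16 under R 4.3.3 (low counts removed with filterByExpr, TMM, glmQLFit and glmQLFTest, two-sided, Benjamini-Hochberg adjustment over 13226 genes, threshold 0.05). The median degrees of freedom were 10.04. CPM use TMM library sizes and log2 CPM a prior count of 2; log2 fold changes are transgenic minus non-transgenic. The fit was tested on simulated data. Alternatives were other scalings, DESeq2 1.42.0, limma 3.58.1 (voom), other filters, leaving out hearts and a block on letters. An adjusted p is edgeR's unless another tool is named. All 36 members were named; of the other pathway lists, every gene past the threshold or else the 2 with the smallest p, except for 1 gene that is not reported here. The members and lists were chosen with earlier results of these data known.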

Additional observations from a re-analysis of the deposited data

Results flagged for a closer look

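Aldh6a1 in transgenic heart A was at 326.2 CPM, far above the other 3 transgenic hearts (261 to 267 CPM). On the log2 CPM scale, the gap to the next heart was 0.896 of the group's range. This group was the only 1 of 72 (36 genes in each genotype) in which a heart stood apart in this way, and chance gives about 1 in 20 such groups.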

How the results depend on the processing

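The number of members that rose was 0 under all alternatives run. The number that fell was 0 except for 1 with DESeq2 and a range of 0 to 1 when leaving out each heart, the 1 being Idh2 without non-transgenic heart D. Of the other pathway genes 0 fell, except 1 (Pdp2) with DESeq2, 1 without non-transgenic D and transgenic A together, and 0 to 1 when leaving out each heart; 3 rose, or 4 without non-transgenic heart B. Signs turned with library totals only for Pdhb (0.0355), Dlat (0.0388), Ogdh (0.0148), Bdh1 (0.00323), Oxct1 (0.0246) and Pccb (4.23e-05), and without non-transgenic D and transgenic A for Ogdh (0.0261) and Bcat2 (-0.0051). Leaving out each heart gave log2 fold changes of -0.191 to 0.0444 for Ogdh, -0.154 to 0.0401 for Pdhb, -0.223 to 0.0173 for Pdhx, -0.12 to 0.0157 for Oxct1, -0.0399 to 0.107 for Bcat2, -0.17 to 0.0205 for Dbt and -0.26 to 0.000994 for Aldh6a1; the cause was not tested. No label says that letters pair the hearts. The deviations of same-lettered hearts correlated at 0.30 (A), -0.08 (B) and 0.36 (E), and those of differently lettered hearts at -0.44 to 0.45. These values do not decide whether hearts are paired. With letters A, B and E as a replicate block, 0 members rose or fell, the members' median was -0.25 and Bcat2 turned to -0.0262; without the block on the same hearts, a fit added after seeing the data, Bcat2 was at -0.0345. The fall of 32 genes over the whole table was 159 with DESeq2 (249 rose), 9 to 72 when leaving out each heart and 106 without non-transgenic D and transgenic A. The stricter filter removed Bcat1. With 4 hearts a group, small differences of the size seen here may be missed.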
